A study of Mus musculus with 9 samples.

Results

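The retinoid receptors are the 6 nuclear receptor genes Rara, Rarb, Rarg, Rxra, Rxrb and Rxrg, measured here in RAW 264.7 cells, a macrophage line of the mouse. Their members were taken as every probe set that the platform annotation assigns to exactly 1 of these symbols, which gave 8 probe sets of 22626 tested, for 6 of 12393 named genes. The family was selected on differences between groups already known from these same 9 arrays, so the receptors' values and changes are descriptions. Where a receptor is said to be called, this gives its place in a fit across all probe sets and is no independent test of it. Rarg and Rxra have 2 probe sets each and the other receptors 1 each.

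The 9 arrays form groups of 3, each array holding total RNA of 1 sample. One group was RAW 264.7 cells without treatment. Another was the same line after 18 h with lipopolysaccharide (LPS) of bacteria at 100 ng/ml. The last was cells labelled for constitutive over-expression of CstF-64, the RNA-binding subunit of the cleavage stimulation factor, which acts in making the 3′ ends of mRNAs. No construct, control population for it, or clone or pool of cells is given in the sources used here, and no source says whether the replicates were separate cultures. An effect of CstF-64 and other differences between the cell populations cannot be told apart, and a p-value here reflects just the scatter among the arrays, which could be technical. The 3 untreated arrays serve as the control of both other groups. The cells labelled CstF-64 are listed without LPS, so against the LPS group both the cell population and the treatment differ.

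Retinoic acid receptors (RARs) bind all-trans retinoic acid, a derivative of vitamin A, and work on DNA as pairs with a retinoid X receptor (RXR). Without ligand an RAR-RXR pair recruits corepressors to its target genes, and ligand binding exchanges these for coactivators. RXRs also pair with receptors for oxysterols, fatty acids, vitamin D and thyroid hormone, so they serve several pathways of the macrophage. The pairs bind direct repeats of a short motif, and the repeat with a spacer of 5 bases is the classical retinoic acid response element, known from the promoter of Rarb, itself a target of retinoic acid, and from that of Cyp26a1, which encodes an enzyme that degrades it.

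A promoter of Rarb is shown because this receptor had the largest difference of the family and the response element lies in it. The 250 bases before a start site in RefSeq (GRCm38.p6, chr14:16575477-16575726, minus strand) are printed 5′ to 3′ along the gene, with the repeated units in capitals. This start lies inside the gene, which spans chr14:16430839-17082331, and the Rarb probe set was not placed on its transcripts. The same element is then set beside that of Cyp26a1, each along the strand on which the repeat reads forward.
Rarb promoter: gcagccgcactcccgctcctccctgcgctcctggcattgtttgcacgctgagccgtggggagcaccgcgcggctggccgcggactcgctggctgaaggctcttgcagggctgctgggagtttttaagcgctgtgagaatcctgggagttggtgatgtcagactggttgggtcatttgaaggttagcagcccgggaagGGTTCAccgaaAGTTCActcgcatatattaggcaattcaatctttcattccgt
Rarb element: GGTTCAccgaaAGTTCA
Cyp26a1 element: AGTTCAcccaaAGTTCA
The Rarb element spans chr14:16575513-16575529, at bases -53 to -37 from the start site, on the gene's own strand. The Cyp26a1 element spans chr19:37697776-37697792, at bases -32 to -16, on the strand opposite to the gene. The search took any 2 units in the same orientation, on both strands, where a unit is AGGTCA or the variant AGTTCA or the variant GGGTCA or the variant GGTTCA, in windows from 250 bases before to 50 bases after a start. The layouts searched, which share these units, had spacers of 1, 2 and 5 bases. A spacer of 5 occurred in 32 of 32851 RefSeq windows (0.0974%), a spacer of 1 in 73 (0.222%) and a spacer of 2 in 88 (0.268%). Among the receptors' windows only the one of Rarb held any of the 3 layouts, which says of the others only that these letters are not in those windows.

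The level of every probe set is its deposited intensity, a brightness on a linear scale, and levels of different probe sets are not comparable. The highest intensity of 27 Bacillus control probe sets, 31.2, served as the background limit. Over the 9 arrays the receptors' probe sets fell on both sides of it: 3 lay above the limit on all arrays (1 each of Rarg, Rxra and Rxrb), 1 at or below it on all arrays (Rxrg), and 4 on both sides. Changes are differences of log2(intensity + 13), with the standard error and 95% interval from 1 limma model of all 9 arrays; a probe set is said to be called where its adjusted p over all 22626 probe sets was under 0.05.

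Array medians lay between 42.75 and 49.3 after LPS and between 51.1 and 54.2 in the other groups, at equal trimmed means. LPS array 1 (mean r 0.966 with its group across probe sets) and CstF-64 array 1 (0.975) stood apart from the arrays of their groups. All 10 macrophage markers measured were above the limit on every array, while 0 of 8 lymphocyte, 0 of 7 granulocyte and 1 of 7 fibroblast markers were. Macrophage markers were not all level between the arrays labelled CstF-64 and untreated cells. Adgre1 (209.5 to 230.6 against 416.3 to 608.1) and Itgam (108.6 to 119.2 against 123.9 to 194.9) were lower. Fcgr1 (147.4 to 157.6 against 79.1 to 127.3) was higher, and the others overlapped. Summed intensity of the fibroblast markers was 124.9 to 144.7 in untreated cells, 171.1 to 194.8 after LPS and 118.5 to 140.6 in the arrays labelled CstF-64. Dcn, a matrix proteoglycan, read 4.9, 3.5 and 13.4 in untreated cells and 34.4, 46.4 and 61.7 after LPS. By group means Col1a2 (56.97 to 52.53), above the limit on every array, and Col3a1 (17.3 to 16.0) were lower after LPS. Col1a1 (18.37 to 20.0), Pdgfra (11.53 to 20.87), Pdgfrb (0.9333 to 1.467) and Thy1 (19.63 to 25.97) were higher, with means below the limit. Summed intensity of 6 LPS response markers was 258.3 to 941.7 in untreated cells, 17840 to 27180 after LPS and 502 to 1234 in the arrays labelled CstF-64. Summed intensity of 5 osteoclast markers, which Ctsk dominates in untreated and CstF-64 arrays, was 639.8 to 1638, 944 to 2176 and 1401 to 3005. Ctsk, a protease of osteoclasts that macrophages also make, read 2801.9 on CstF-64 array 1 but 1191.7 and 1245.6 on the other CstF-64 arrays, against 426.4, 1457.4 and 1460.3 in untreated cells. The gene that encodes CstF-64, Cstf2, was not called higher in the arrays labelled for it: its probe set 1419645_at differed from untreated cells by -0.08 on the log2 scale (limma adjusted p = 1) and 1419644_at by -0.36 (limma adjusted p = 0.763). Whether these probe sets read the expressed construct is not known here, so the label is used only as a name.

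Rarb, itself a target of retinoic acid, was 5.08 times as high by group means in the arrays labelled CstF-64 as in untreated cells. Its probe set 1454906_at read 47.6, 47.3 and 43.7 in the untreated arrays, a mean of 46.2 ± 2.17 (SD, n = 3). After LPS it read 21.7, 30.9 and 24.7 (mean 25.77 ± 4.69), and in the arrays labelled CstF-64 160.4, 268.5 and 275.6 (mean 234.8 ± 64.6). The 3 groups did not overlap: every LPS array lay below every untreated array and at or below the background limit, and every CstF-64 array lay above every untreated array. CstF-64 array 1, which stood apart across all probe sets, had the lowest of the 3 high values.

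On the log2 scale Rarb differed by 2.03 between the arrays labelled CstF-64 and untreated cells (SE 0.21, 95% interval 1.56 to 2.5), and was 9 from the top among 22626 changes. Over 15 alternative settings the value lay between 1.54 and 2.28. After LPS it differed from untreated cells by -0.62 (SE 0.21, 95% interval -1.09 to -0.14), at least 1.48-fold lower by geometric mean. This change was not called. Over the alternatives it lay between -0.83 and -0.35, and it was called under 2 of 15. Between the arrays labelled CstF-64 and LPS Rarb differed by 2.65 (95% interval 2.17 to 3.12), at least 7.31-fold higher by geometric mean. The osteoclast markers differed among themselves within the CstF-64 group. Array 1, with the lowest Rarb of its group, had the highest Ctsk and Acp5 (88.6, against 31.4 and 30.6 on the others). Mmp9 was lowest there (60.9, against 120.6 and 102.4), and each CstF-64 array lay above the untreated arrays (42.2 to 47.0). Oscar read 43.1, 44.5 and 40.1, and Calcr was below the limit. Without CstF-64 array 1 the Rarb difference from untreated cells was 2.27. The part of osteoclast-like cells in the Rarb difference was not tested. These are bulk samples, in which fewer cells of a type and less RNA per cell cannot be told apart.

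**Figure D1:**
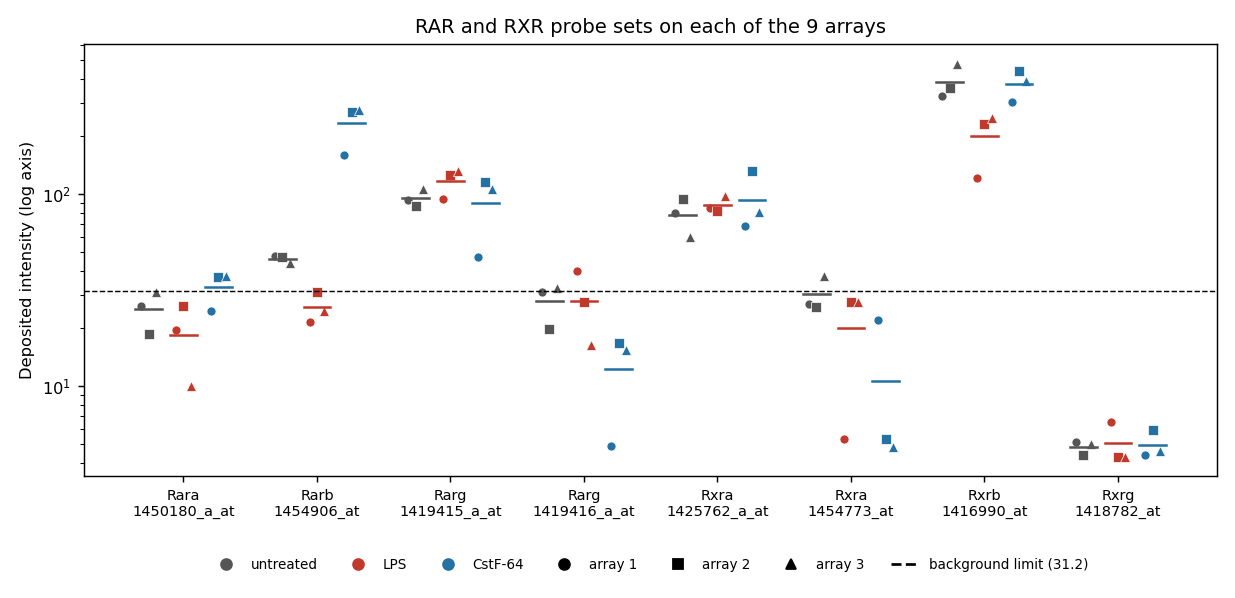
Deposited intensity on a log axis of the 8 receptor probe sets on each of 9 arrays, with colours for groups, shapes for arrays, short bars for group means and a dashed line for the background limit of 31.2. Rarb lies at 160.4 to 275.6 in the CstF-64 arrays and at 43.7 to 47.6 in the untreated arrays, and Rxrb lies lower after LPS (121.9 to 249.2) than in untreated cells (323.0 to 478.5).

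Rara, the RAR that is expressed in most tissues, was dim. Its probe set 1450180_a_at read 26.3, 18.7 and 31.0 in untreated cells, 19.6, 26.1 and 10 after LPS and 24.5, 36.9 and 37.4 in the arrays labelled CstF-64. Only CstF-64 arrays 2 and 3 exceeded the limit, and the groups overlapped in all 3 comparisons. The change was -0.30 after LPS (95% interval -0.82 to 0.22) and 0.26 in the arrays labelled CstF-64 (95% interval -0.26 to 0.78). Across the 9 arrays Rara and Rarb, on different probe sets of shared arrays, correlated at r = 0.71, given as a description of those arrays.

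Rarg, the RAR best known from skin, gave different pictures on its probe sets. The brighter one, 1419415_a_at, read 92.8, 86.3 and 106.7 in untreated cells, 93.9, 125.3 and 132.1 after LPS and 47.3, 116.2 and 107.0 in the arrays labelled CstF-64. All groups overlapped, and CstF-64 array 1 was the lowest of all 9. The change in the arrays labelled CstF-64 was -0.14 (95% interval -0.75 to 0.47), and it was 0.21 without CstF-64 array 1.

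The dimmer Rarg probe set, 1419416_a_at, read 31.1, 19.8 and 32.4 in untreated cells, 39.7, 27.4 and 16.4 after LPS and 4.9, 16.7 and 15.4 in the arrays labelled CstF-64. In the last group every array lay below the limit and below every untreated array, with a change of -0.71 (SE 0.27, 95% interval -1.3 to -0.11) that was not called. The 2 probe sets correlated at r = 0.52 over the 9 arrays. The suffix of both names marks a probe set that matches several transcripts of 1 gene, and which exons each one reads was not analysed here.

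Rxrb, the RXR of broad expression, was lower after LPS. Probe set 1416990_at read 323.0, 355.2 and 478.5 in untreated cells (mean 385.6 ± 82.1), 121.9, 230.7 and 249.2 after LPS (mean 200.6 ± 68.8) and 301.0, 435.7 and 390.2 in the arrays labelled CstF-64 (mean 375.6 ± 68.5). Every LPS array lay below every array of the other groups, while untreated and CstF-64 arrays overlapped. The log2 difference after LPS was -0.94 (SE 0.26, 95% interval -1.52 to -0.36), 1.92-fold lower, and it was called. The arrays labelled CstF-64 differed from untreated cells by -0.03 (95% interval -0.61 to 0.55) and from LPS by 0.91 (95% interval 0.33 to 1.49), the last of which was called.

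Both Rxrb calls depend on settings. The one after LPS was lost under 7 of 15 alternatives, with differences from -1.12 to -0.64 over all of them. Those were quantile normalization, subtraction of array medians, a model of only the groups compared, and leaving out untreated array 1 (-1.05), 2 (-0.99) or 3 (-0.78) or LPS array 1 (-0.64). LPS array 1 was the lowest of the 9 for Rxrb. The fibroblast markers were higher in sum after LPS, mostly through Dcn, and their part in the Rxrb difference was not tested. The call against LPS was also lost under 7 of 15, with differences from 0.60 to 1.08 over all of them: the first 3 settings just named, no intensity trend, and leaving out LPS array 1 (0.60), CstF-64 array 2 (0.80) or CstF-64 array 3 (0.87).

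Rxra, the main RXR of myeloid cells, also gave unequal probe sets. The brighter one, 1425762_a_at, read 79.7, 94.2 and 60.1 in untreated cells, 84.9, 81.3 and 97.5 after LPS and 68.5, 132.3 and 80.5 in the arrays labelled CstF-64. The groups overlapped throughout, with changes of 0.16 after LPS and 0.20 in the arrays labelled CstF-64 (SE 0.23 for both). The second value was -0.04 without CstF-64 array 2, the highest of the 9.

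The dimmer Rxra probe set, 1454773_at, read 26.8, 25.9 and 37.5 in untreated cells, 5.3, 27.6 and 27.5 after LPS and 22.0, 5.3 and 4.8 in the arrays labelled CstF-64. Untreated array 3 alone exceeded the limit. Every CstF-64 array lay below every untreated array, with a change of -0.93 (SE 0.35, 95% interval -1.71 to -0.15) that was not called. Over the 9 arrays the 2 Rxra probe sets correlated at r = -0.49.

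Rxrg, the RXR of muscle and brain, was at or below the limit on all arrays. Its probe set 1418782_at lay between 4.3 and 6.5 on the 9 arrays, and no fold is given. Background intensities of this size do not show whether the transcript was absent.

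The counts over the family rest on the differences it was chosen by. After LPS 1 of 8 probe sets was called (Rxrb, lower), where 16.6% of all probe sets were called, and 2 of 8 had groups that did not overlap (Rarb and Rxrb, both lower), where 33.4% of all did. The median change of the 8 was -0.16, and that of all probe sets -0.04. By the brightest probe set of each gene, 17% of genes were called. All 3 shares describe the whole array and nothing is read from the receptors' counts.

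In the arrays labelled CstF-64 1 of 8 probe sets was called against untreated cells (Rarb, higher), where 0.248% of all probe sets were called (56 in number, 23 higher and 33 lower). Groups did not overlap for 3 of 8, Rarb higher and the dimmer probe sets of Rarg and Rxra lower, where 12.9% of all did not. The median change of the 8 was -0.01 and by brightest probe set 0.274% of genes were called. Against LPS 2 of 8 were called, Rarb and Rxrb, both higher, and the same 2 did not overlap, where 15.2% of all probe sets were called, 30.8% did not overlap and 15.8% of genes were called by brightest probe set. Over all probe sets the calls after LPS were 1341 higher and 2414 lower, but 1527 and 1778 after quantile normalization and 2228 and 1455 with array medians subtracted. Against LPS the calls in the arrays labelled CstF-64 were 2133 higher and 1310 lower, and 1249 and 2097 with array medians subtracted.

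**Figure D2:**
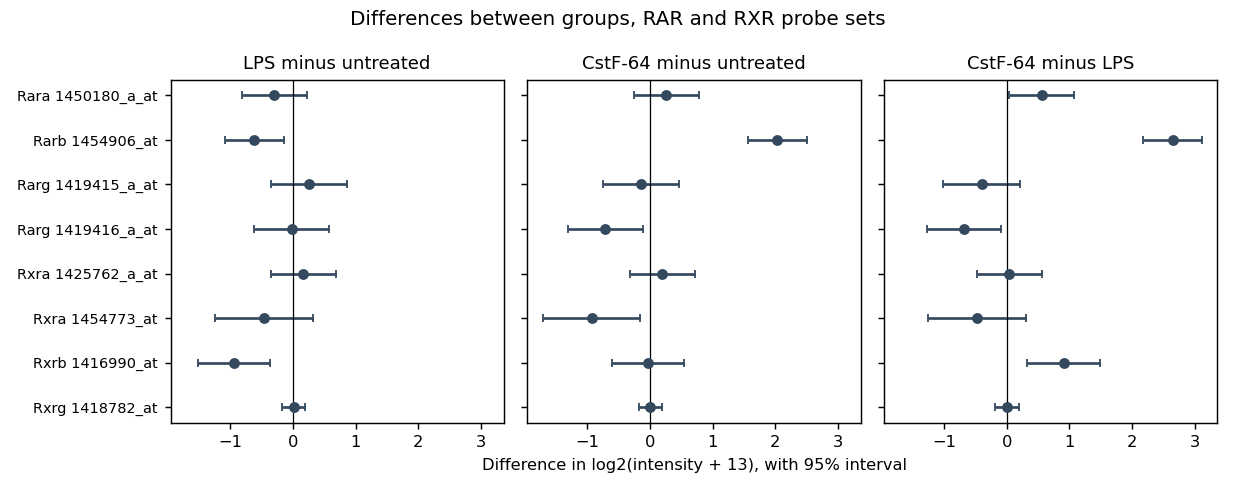
Log2 change of each receptor probe set on the log2(intensity + 13) scale for LPS minus untreated, CstF-64 minus untreated and CstF-64 minus LPS, 1 panel each, with bars for 95% intervals. Rarb stands at 2.03 in the arrays labelled CstF-64 and at -0.62 after LPS, and Rxrb at -0.94 after LPS and -0.03 in the arrays labelled CstF-64.

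Genes that make, carry and degrade retinoic acid, its other RXR partners, corepressors, coactivators and genes known to be induced by it were then read beside the receptors, as 84 listed genes without the 6, of which 71 were measured. After LPS 10 of the 71 (14.1%) were called, 2 higher and 8 lower, where 17% of all genes were called by their brightest probe set, and the median change of the 71 was -0.02. The share is no higher than that of the array as a whole, and no list is singled out by its count. Of 29 measured genes for retinoid uptake, binding and oxidation, 1 rose and 3 fell. Of 12 other RXR partners none was called, with 0 at an unadjusted limma p under 0.05. However, 7 of the 12 were at or below the limit on all arrays, and only 2 were above it on all arrays. The partners with the smallest p were Thrb, a thyroid hormone receptor (30.93 after LPS against 44.83, limma adjusted p = 0.228), and Nr1i3, a xenobiotic receptor that was below the limit on all arrays. Among 8 corepressors 2 fell, among 11 coactivators 2 fell, and among 15 genes known as retinoic acid-inducible 2 rose and 1 fell. Dhrs3 is on both the first and the last list and is counted once in the total. Many list genes were dim. At or below the limit on all arrays were 12 of the 29 uptake, binding and oxidation genes, 2 of the 11 coactivators and 5 of the 15 inducible genes, with some genes on 2 lists. For these genes the lack of a call does not show that they were unchanged.

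Retsat, which saturates retinol, fell from 483.8 ± 47.9 in untreated cells to 121.3 ± 30.5 after LPS (log2 -1.91, SE 0.19, limma adjusted p = 0.000138). Rdh10, which oxidises retinol to retinaldehyde, the step before retinoic acid, fell from 66.03 ± 5.87 to 21.4 ± 3.31, at least 2.11-fold by geometric mean (limma adjusted p = 0.00233). Adh1, an alcohol dehydrogenase that also uses retinol, fell from 44.53 ± 16.9 to 20.1 ± 5.17, at least 1.37-fold by geometric mean (limma adjusted p = 0.0393). Dhrs3, which reduces retinaldehyde back to retinol, rose from 115.6 ± 33.4 to 218.2 ± 55.4 (log2 0.86, SE 0.23, limma adjusted p = 0.031). Rdh10 and Dhrs3 catalyse opposite directions of the same step, and the first was lower and the second higher after LPS. The other measured Rdh and Dhrs genes of the list were not called, and every LPS value of Rdh10 was below the limit. No direction of the step is read from these 2 genes.

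Of the corepressors, Nrip1 fell from 86.13 ± 4.24 to 43.77 ± 12.9 (log2 -0.83, limma adjusted p = 0.0139) and Tbl1xr1, part of the corepressor complex, from 338.8 ± 30.6 to 218.2 ± 62.7 (log2 -0.64, limma adjusted p = 0.0484). Of the coactivators, Kat2a, a histone acetyltransferase, fell from 217.7 ± 42.8 to 97.27 ± 15.0 (log2 -1.06, limma adjusted p = 0.00646) and Med1, the Mediator subunit that nuclear receptors bind, from 357.6 ± 6.57 to 231.0 ± 58.9 (log2 -0.63, limma adjusted p = 0.0269). The probe sets of Kat2a, Tbl1xr1 and Carm1 carry a suffix for probes that can match more than 1 gene. Among the inducible genes, Itga4, an integrin subunit, fell from 194.8 ± 10.7 to 44.73 ± 14.7 (log2 -1.88, limma adjusted p = 0.000138), while Rai14, an actin-associated protein gene, rose from 152.8 ± 22.2 to 354.6 ± 58.4 (log2 1.15, limma adjusted p = 0.000852). Cyp26a1, whose promoter carries the element shown above, read 35.5, 15.5 and 40.1 in untreated cells and 51.9, 28.2 and 15.6 after LPS, with overlapping groups. Its values lay on both sides of the limit in each group.

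Retsat, Rdh10, Kat2a, Itga4 and Rai14 were called under all 15 alternatives. The calls of Adh1, Med1, Tbl1xr1, Dhrs3 and Nrip1 were lost under 8, 7, 10, 6 and 2 of them, with adjusted p up to 0.123, 0.0911, 0.146, 0.107 and 0.0571. A replicate block ended the calls of Adh1 (limma adjusted p = 0.0601) and Dhrs3 (limma adjusted p = 0.0574). The single arrays whose omission ended a call were untreated 1 and 2 and LPS 2 and 3 for Adh1, all untreated arrays and LPS 1 and 3 for Med1, all untreated arrays and LPS 1 and 2 for Tbl1xr1, untreated 2 and 3 and LPS 1 and 3 for Dhrs3, and untreated 1 for Nrip1.

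In the arrays labelled CstF-64 none of the 71 genes was called against untreated cells, with a median of -0.01, 6 genes at an unadjusted limma p under 0.05 and a smallest limma adjusted p of 0.369. By brightest probe set 0.274% of all genes were called. Many of the 71 were at or below the limit on all arrays, as counted above, where a change could be missed. The smallest adjusted p was of Itga4, which read 335.6, 306.1 and 323.1 against 182.7, 198.8 and 202.9 in untreated cells, groups that did not overlap (log2 0.69, 95% interval 0.27 to 1.11). Rai14 read 223.4 ± 20.5 against 152.8 ± 22.2 (log2 0.52, limma adjusted p = 0.456). Nrip1 read 59.2 ± 3.78 against 86.13 ± 4.24 (log2 -0.46, limma adjusted p = 0.717), and Rdh11, a retinaldehyde reductase, 289.5 ± 21.4 against 378.2 ± 48.3 (log2 -0.37, limma adjusted p = 0.704). Rdh5, another retinol dehydrogenase, read 3.7, 4.3 and 20.5 against 22.1, 18.9 and 19.6, all below the limit. Carm1, a coactivator with methyltransferase activity, read 436.5, 443.4 and 446.5 against 560.5, 497.7 and 519.3, groups that did not overlap (log2 -0.24, limma adjusted p = 0.712). Med1 (log2 -0.16) and Tbl1x, a corepressor subunit (log2 -0.19), had limma adjusted p = 0.995 and 0.967, and Nr1h4, the bile acid receptor, and Nr1i3 were below the limit on all arrays. Cyp26a1 read 37.4, 36.9 and 23.6 in the arrays labelled CstF-64, with a change of 0.11 (95% interval -0.63 to 0.84). The Cyp26a1 probe set lay near the limit, with a mean over 9 arrays of 31.63 and 5 arrays above it, so a change could be missed. Rarb, whose promoter holds the same layout, differed by 2.03 in this comparison, and the difference between the 2 changes was not tested.

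Against LPS, 7 of the 71 were called in the arrays labelled CstF-64 (9.86%), 5 higher and 2 lower, where 15.8% of all genes were called by their brightest probe set. Itga4 was 5.94-fold higher (limma adjusted p = 2.26e-05) and Retsat 3.03-fold higher (limma adjusted p = 0.000456). Rdh10, Kat2a (limma adjusted p = 0.0108) and Icam1, an adhesion molecule (468.3 against 254.8, limma adjusted p = 0.0167), were also higher, and Dhrs3 and Rai14 (limma adjusted p = 0.0215) lower. The LPS arrays are common to this and the first comparison, so these values are set side by side and no agreement is drawn from them.

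**Figure D3:**
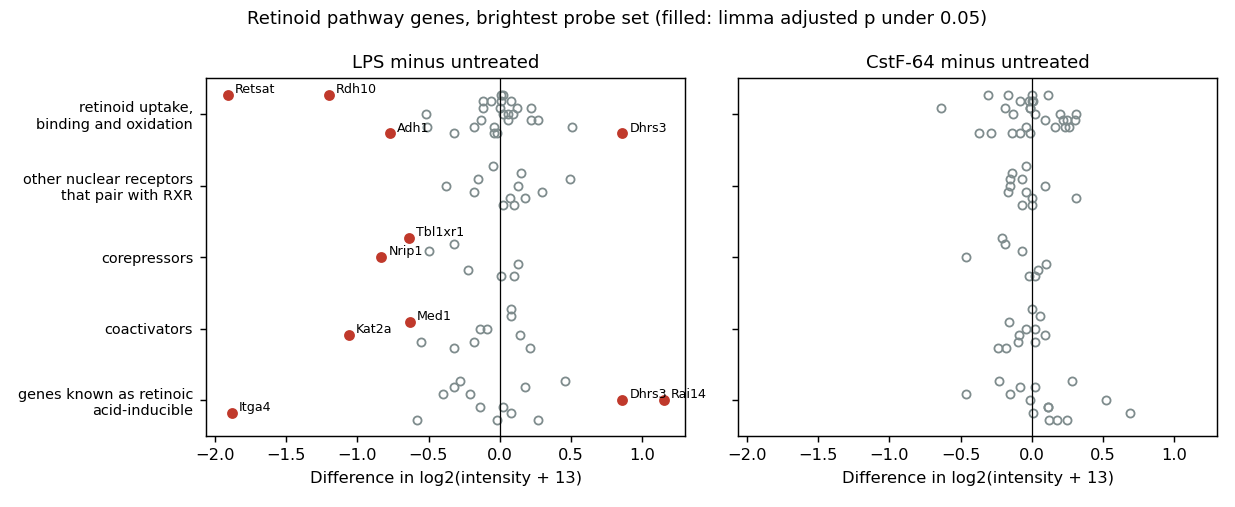
Log2 change on the log2(intensity + 13) scale of measured genes of the 5 retinoid lists, after LPS and in the arrays labelled CstF-64, each against untreated cells, 1 point for each gene's brightest probe set and filled points for called genes. After LPS values run from -1.91 (Retsat) to 1.15 (Rai14), and in the arrays labelled CstF-64 the highest is 0.69 (Itga4).

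The genes whose values followed each receptor most closely over the 9 arrays were found among 7996 candidates whose mean over the 9 arrays was above the limit, by the correlation of log2 values, and are given without a test because all values share the arrays. For Rarb they were Igfbp6 (r = 0.980), a secreted binding protein of insulin-like growth factors, Map2k6 (0.976), a kinase that activates p38, and Cbr4 (0.966), a mitochondrial reductase. Cbr4 read 403.4 ± 21.1 in untreated cells, 278.7 ± 11.5 after LPS and 1016 ± 97.3 in the arrays labelled CstF-64. Map2k6 read 14.5, 4.80 and 77.37 in the same order of groups, and was at or below the limit on the 6 other arrays. It was a candidate only through the CstF-64 group, and nothing is read from its correlation. Igfbp6 read 34.10, 30.13 and 44.23, all near the limit, and exceeded it on 7 of the 9 arrays. For Rxrb they were Pcnp (0.985), Btbd1 (0.984) and Vegfb (0.980), a vascular growth factor. The lowest of the 9 values of Btbd1 (125.2) and Vegfb (104.4) was on LPS array 1, as for Rxrb.

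For the brighter Rarg probe set they were Ccndbp1 (0.951), Rap2a (0.948) and Zfp954 (0.938), whose lowest values also fell on CstF-64 array 1. For the brighter Rxra probe set they were Sspo (0.872), Cxxc5 (0.872) and Tnip2 (0.856), lower correlations than those of the other receptors. Rara and Rxrg, whose mean over 9 arrays is under the limit, were given none.

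**Figure D4:**
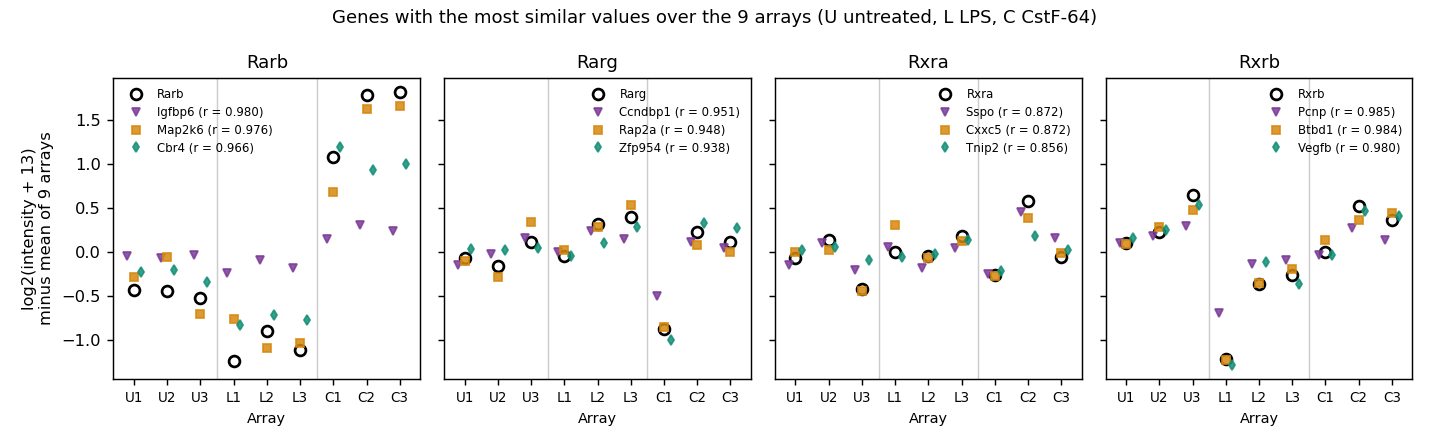
Log2(intensity + 13) minus the mean of 9 arrays, by array (U untreated, L LPS, C CstF-64), for 4 receptors and the 3 genes most like each. The Rarb values and those of its 3 genes are highest in the 3 CstF-64 arrays, and the lowest Rxrb value is on LPS array 1.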

How the data were processed

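RNA of 9 samples was hybridised to Affymetrix mouse arrays, per the labels, and isolated with the Ultraspec system. The authors deposited a linear intensity for every probe set on every array. How these were computed, background corrected and normalized is not stated in the labels, but equal trimmed means (150.05 to 150.06) show a common scaling. Of 22690 probe sets 64 controls were left out, and of the remaining 22626 the platform annotation gives 1 gene for 20380, several for 691 and none for 1555. Arrays were mapped to groups by title, 3 per group, with 0 columns unmapped. Values were used as deposited on the scale log2(intensity + 13), which shrinks changes of dim probe sets and in which 13 is 0.25 of the median intensity of 50.2, rounded up to a whole number. One limma 3.58.1 model (R 4.3.3, lmFit and eBayes with an intensity trend) was fitted to all 9 arrays, with two-sided p-values adjusted by Benjamini-Hochberg over 22626 probe sets and a threshold of 0.05. A fold "at least N" divides the brighter group's geometric mean by the limit of 31.2, and is given where the other group lay at or below it on all arrays. It leaves out the scatter among arrays and is not the end of an interval. The fit was tested on simulated data.

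The members and gene lists were chosen with earlier results of these data known. For list genes the brightest probe set was used. Named are the 6 receptors, from each list up to 4 called members per comparison or the 2 smallest p where fewer than 2 are called, the 3 genes most like each receptor whose mean is above the limit, and Cstf2. Icam1 and Cyp26a1 are named outside this rule, after their values were seen. Promoter sequences come from RefSeq (GRCm38.p6). Alternatives were quantile normalization, subtraction of array medians, pseudocounts of 1 and 50, leaving out dim probe sets (14319 kept), no intensity trend, robust variance, only the groups compared, a replicate block and leaving out each array. The number of arrays limits the precision.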

Additional observations from a re-analysis of the deposited data

How the results depend on the processing

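The Rarb difference, which the family was chosen by, lay between 1.88 and 3.11 against LPS over 15 alternatives. After LPS, receptor probe sets called (1 in the report) numbered 0 after quantile normalization, 0 with array medians subtracted, 0 with only the 2 groups compared, 2 with a pseudocount of 1, 2 with dim probe sets left out, and 0 to 1 on leaving out single arrays. Against LPS, those called in the arrays labelled CstF-64 (2) numbered 1 after quantile normalization, 1 with no intensity trend, 1 with only the 2 groups compared and 1 to 2 on leaving out single arrays; with array medians subtracted the number was 2, but Rxrb was lost and the dimmer Rarg probe set was called. List genes called after LPS (10) numbered 6 with only the 2 groups compared and 6 to 8 on leaving out single arrays, and against LPS (7) they numbered 5 to 8. Over all probe sets, leaving out single arrays gave 2399 to 3485 calls after LPS (3755), 18 to 110 in the arrays labelled CstF-64 (56) and 2093 to 3299 against LPS (3443). Subtracting array medians moved the median change of all probe sets from -0.04 to 0.12 after LPS and from 0.05 to -0.10 against LPS. Same-numbered arrays deviated together at r = -0.063 to 0.158, over 0.1 in 3 of 9 pairs. Arrays of other numbers did so at r = -0.236 to 0.196, over 0.1 in 1 of 18 pairs. Correlations this weak cannot show whether the numbers pair samples, and no source says so. A replicate block gave 32 calls in the arrays labelled CstF-64. It left 1 receptor called there, 1 after LPS and 2 against LPS, and 9 list genes after LPS. The cause of these changes was not tested. Intensities near or below 31.2 limit what can be said of Rara, Rxrg, Cyp26a1, the dimmer probe sets of Rarg and Rxra, and the dim list genes.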
